A study of Mus musculus with 16 samples.

Results

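Immediate early genes outside the AP-1 family were followed across 4 groups of mouse striatum in bulk RNA sequencing. The 36 genes were chosen by symbol, as the rows of the deposited count table that carry the names of known early genes other than Fos and Jun family members, and they are 36 of 48795 rows. All 36 passed the filter on low counts that left 20825 genes, with between 58 (Maff) and 60463 (Arc) reads in a library. They were sorted by known timing and main cell source into 24 rapid genes (7 mainly neuronal, 7 mainly vascular or glial, 10 broadly expressed) and 12 delayed genes (5 mainly neuronal, 7 broadly expressed). The sorting is textbook knowledge and approximate, since nearly all of these genes can be induced in more than 1 cell type.

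The mice were wild type or Sapap3 knockouts. Sapap3, now named Dlgap3, encodes a postsynaptic scaffold protein of excitatory synapses on striatal neurons, and its knockout is used as a model of compulsive grooming. Striatal astrocytes were made to express, by an injected adeno-associated virus (AAV), either the red fluorescent protein tdTomato or hM4Di, an inhibitory Gi-coupled receptor engineered to respond to a designer drug. All 4 groups were given the drug, deschloroclozapine (DCZ), per the labels. The groups are wild type with tdTomato and DCZ (WT_tdT), wild type with hM4Di and DCZ (WT_hM4D), knockout with tdTomato and DCZ (KO_tdT) and knockout with hM4Di and DCZ (KO_hM4D), with 4 libraries each. Strain, age, sex, the promoter in the virus and the time from DCZ to tissue collection are not stated in the sources used, and there was no hM4Di group without DCZ, so effects of receptor expression and of its activation cannot be told apart.

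Immediate early genes are transcribed within minutes of a stimulus without new protein synthesis. In neurons, calcium entry and the MAP kinase cascade activate factors already bound at their promoters, mainly CREB at cAMP response elements and SRF with its partners at CArG boxes, and in striatal projection neurons dopamine and glutamate input drive them. Rapid members peak and decay soon after a stimulus, while delayed members such as Bdnf or Nr4a3 build up more slowly; endothelial cells, astrocytes and microglia run overlapping programs in response to flow, growth factors and stress.

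Library totals ran from 129149745 to 180655067 counts. Dlgap3 lay between 294 and 437 CPM (reads of a gene scaled to the library's total) in the 8 wild-type libraries and between 153 and 167 CPM in the 8 knockout libraries, so the residual signal did not overlap the wild-type range. One source field of 3 WT_hM4D libraries names the knockout; their titles, genotype fields and Dlgap3 levels are wild type. In 4 libraries (WT_tdT 4, WT_hM4D 2, WT_hM4D 4 and KO_tdT 3) both Xist and Y-linked transcripts exceeded 5% of their highest level in the series, so 1 animal per library is uncertain for them, and counts of calls are given with and without them. KO_tdT 4, with Xist at 60.3% and Y-linked transcripts at 4.90%, lay just under that limit and was kept, and counts without it are also given. Also under it and kept were WT_tdT 3 (Xist 4.17%, Y-linked 98.4%) and WT_hM4D 1 (4.18% and 96.3%). Xist was at 2.63% in WT_hM4D 3 and 1.32% in WT_tdT 2, against 0 in KO_tdT 1 and 2. The same transcripts differed between groups. All 4 KO_hM4D libraries and WT_tdT 1 had Xist at 65.1% or more of the highest library and Y-linked transcripts below 0.1%, while WT_tdT 2 and 3, WT_hM4D 1 and 3 and KO_tdT 1 and 2 had Y-linked transcripts at 94.9% or more. Sex therefore moves with the group in every comparison of KO_hM4D. A fit with the Y-linked level as a covariate, added after seeing the data, is given beside the counts. Nothing in the labels says that libraries of a group are separate animals beyond their being separate samples, so p-values measure the spread between these samples. Defining markers of the tissue were present in every library (striatal projection neuron markers summed to 3227 to 6044 CPM, astrocyte markers to 5879 to 7113 CPM). Tissue makeup also varied: the sum of 6 thalamic, septal or pallidal markers reached 224 CPM in KO_tdT 3 and 191 CPM in KO_hM4D 1, and the sum of 6 oligodendrocyte markers reached 10190 CPM in KO_tdT 4. In bulk tissue, fewer cells of a type and less RNA per cell cannot be told apart.

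Promoter sequences show the elements by which these genes are known to be switched on. RefSeq windows on GRCm38.p6, from 250 bases before to 50 bases after a start site, were found for 27 of the 36 genes; Cyr61 was matched under its current symbol, Ccn1. The core of the cAMP response element, TGACG, read on either strand, was in a window of 20 of the 27 (74.1%), against 23.05% of all 27025 genes with a window and 32.23% of the 13045 that were also tested here. The palindrome TGACGTCA, which holds the core on both strands, was in 4 of the 27 (14.8%; Maff, Btg2, Dusp1 and Arl4d), against 2.03% and 3.27%. A CArG box was in 3 of the 27 (11.1%; Egr2, Zfp36 and Dusp5), against 1.81% and 1.64%. These genes had 1.59 windows each and all genes 1.22, which adds to their chance of a match, and a match is a string of letters and not a shown binding site. The stretches below belong to genes with a called change and are shown because they hold these elements, in capitals.
Btg2, chr1:134079302-134079333, minus strand, 178 to 147 bases before the start site: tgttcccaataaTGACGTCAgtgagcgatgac
Dusp1, chr17:26508596-26508675, minus strand, 203 to 124 bases before the start site: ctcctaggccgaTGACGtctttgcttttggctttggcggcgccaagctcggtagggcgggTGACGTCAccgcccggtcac
Arl4d, chr11:101665503-101665534, plus strand, 38 to 7 bases before the start site: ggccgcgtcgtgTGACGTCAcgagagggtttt
Nr4a1, chr15:101266765-101266822, plus strand, 81 to 24 bases before the start site: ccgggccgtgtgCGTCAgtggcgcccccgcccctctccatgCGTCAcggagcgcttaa
Cyr61, chr3:145650027-145650055, minus strand, 70 to 42 bases before the start site: ccgacagagctaCGTCActgcaacacgcg
Egr2, chr10:67537746-67537830, plus strand, 123 to 39 bases before the start site: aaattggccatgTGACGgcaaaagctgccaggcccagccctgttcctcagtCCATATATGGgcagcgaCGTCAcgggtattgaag
Btg2, Dusp1 and Arl4d carry the full palindrome, Nr4a1 and Cyr61 carry the core in reverse orientation (CGTCA), and the Egr2 stretch holds a CArG box between a forward and a reverse core. Gadd45b and Gadd45g, which also had called changes, have a window without any of the 3 motifs.

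Levels differed widely between the genes. Per length of exon, Arc was highest at 60.3 RPKM (CPM divided by exon length in kilobases, mean of 16 libraries), followed by Egr1 (21.9 RPKM), Dusp6 (19 RPKM), Arl4d (19 RPKM), Ier5 (17.1 RPKM) and Nptx2 (16.4 RPKM). At the other end, Maff stood at 0.241 RPKM and the mRNA decay factor Zfp36 at 0.389 RPKM.

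WT_tdT held the highest level of most of the early genes. The highest of the 16 libraries was a WT_tdT library for 26 of the 36 genes (22.5% of all genes tested), and for 8 of them (Egr2, Arc, Cyr61, Klf2, Btg2, Dusp1, Gadd45b and Csrnp1) each WT_tdT library exceeded all 12 others, a pattern shown by 0.399% of the genes tested. By library, the highest was WT_tdT 4 for 13 genes, WT_tdT 3 for 11, and WT_tdT 1 and 2 for 1 each. WT_tdT 1 was the lowest of the 16 for 4 genes. Relative to the WT_tdT mean, the median log2 level of the 36 genes ran over -0.25 to 0.17 within WT_tdT, over -0.60 to -0.44 within WT_hM4D, over -0.68 to -0.19 within KO_tdT and over -0.63 to -0.39 within KO_hM4D. The upper end of the KO_tdT range was replicate 4, the one library outside WT_tdT whose median fell inside the WT_tdT range. The summed thalamic, septal or pallidal markers set WT_tdT apart in the opposite direction, at 30.1 to 36.5 CPM against 38.9 to 56.1 CPM in WT_hM4D, 37.8 to 224 CPM in KO_tdT and 39.2 to 191 CPM in KO_hM4D. Their 6 genes had median log2 changes of 2.09 in KO_tdT, 0.64 in WT_hM4D and 1.56 in KO_hM4D against WT_tdT. In the same order 6, 2 and 4 of them were higher at an unadjusted p under 0.05 (3.92, 6.57 and 9.91% of all genes tested). None was called, and none was at 0 in any library. The part of this tissue in the early gene levels was not tested.

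**Figure D1:**
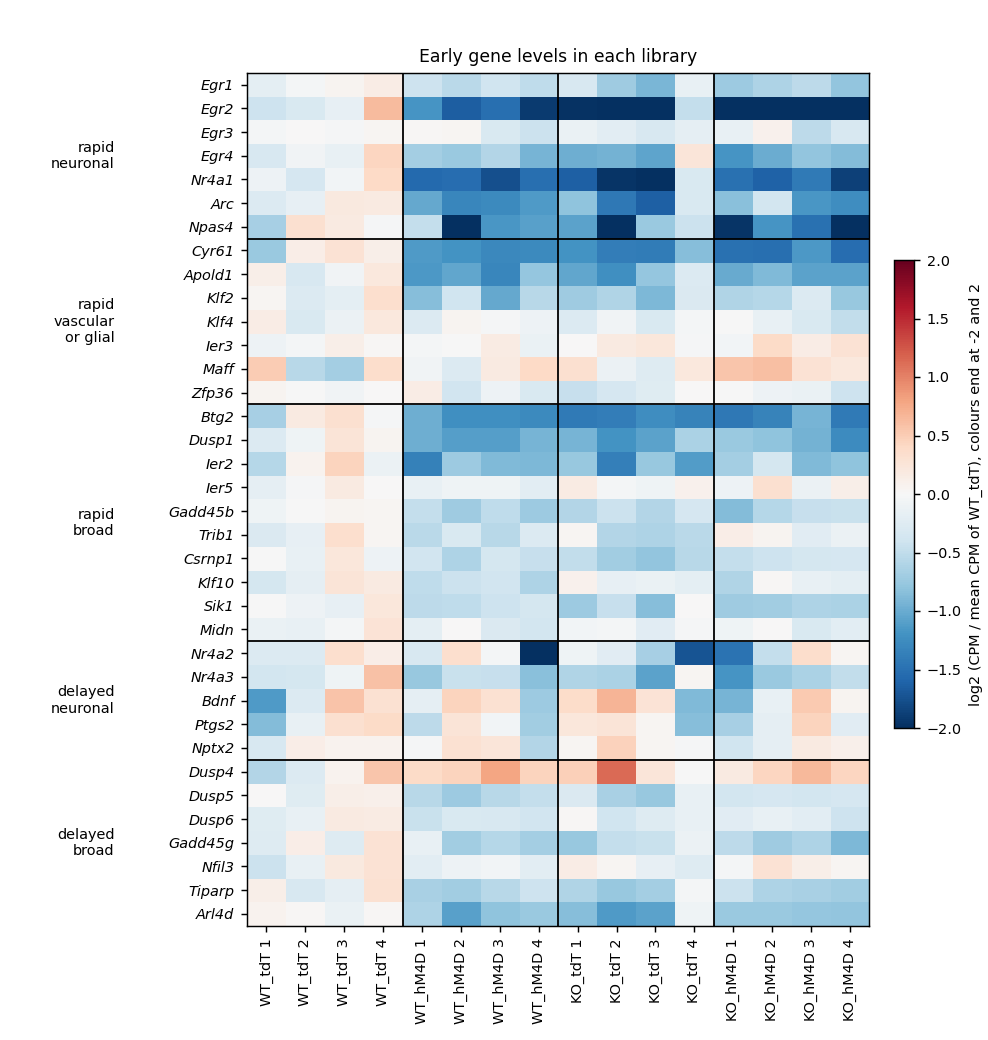
Level of each of the 36 early genes (rows, by class) in each of 16 libraries (columns, by group), as log2 of CPM over the mean CPM of WT_tdT, with blue lower and red higher; colours end at -2 and 2. Egr2, Nr4a1, Cyr61, Apold1, Btg2 and Dusp1 are blue in nearly all libraries outside WT_tdT, while Nr4a2, Bdnf, Ptgs2 and Nptx2 vary between libraries of every group.

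The knockout comparison asks what loss of Dlgap3 changes in mice whose astrocytes carry tdTomato. In KO_tdT against WT_tdT, 4 genes fell, namely Btg2, Cyr61, Dusp1 and Csrnp1, and none rose; 8 of the 20825 genes tested were called lower, or 0.0384%. Below an unadjusted p of 0.05, 21 of the 36 were lower (4.77% of all genes tested) and 1, Dusp4, was higher (3.92%). The sign was negative for 30 of 36 (50.1% of all genes tested), with a median log2 change of -0.47 against -0.00030 over all genes tested. Every KO_tdT library was below every WT_tdT library for 10 genes (2.04%), and the reverse held for none (2.05%). The count of 4 was 1 without WT_tdT 3, KO_tdT 2 or KO_tdT 3, 2 without WT_tdT 4, 14 without KO_tdT 4, and 0 without the 4 libraries of mixed Xist and Y-linked signal. It was 5 with the Y-linked level as a covariate (Apold1 in addition). DESeq2 called 10, these 4 and Egr2, Nr4a1, Apold1, Ier2, Gadd45b and Arl4d. Over all genes tested, DESeq2 called 48 lower and the covariate fit 13, against 8 in the main fit. The number was 2 without WT_tdT 3, KO_tdT 2 or KO_tdT 3, 3 without WT_tdT 4 and 29 without KO_tdT 4. Without the mixed libraries 1 was called lower.

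The astrocyte comparison in wild types asks what hM4Di changes there. In WT_hM4D against WT_tdT, 5 genes fell, namely Dusp1, Btg2, Cyr61, Gadd45b and Apold1, among 8 genes called lower in all (0.0384%), and none of the 36 was among the 10 genes called higher (0.048%). At an unadjusted p under 0.05, 23 were lower (4.48%) and 1, again Dusp4, was higher (6.57%). The median log2 change was -0.47 (0.00078 over all genes tested), 32 of 36 were negative (49.7%), and every WT_hM4D library was below every WT_tdT library for 20 genes (3.19%), with the reverse for none (3.64%). Without WT_tdT 4 the count of 5 was 2, without WT_tdT 3 or WT_hM4D 3 it was 3, without KO_tdT 2, 3 or 4 it was 9, 8 and 11, and without the 4 mixed libraries it was 0. With the Y-linked covariate the same 5 were called. DESeq2 called 17, these 5 and Egr1, Egr2, Nr4a1, Arc, Klf2, Ier2, Csrnp1, Klf10, Dusp5, Dusp6, Tiparp and Arl4d. Over all genes tested, DESeq2 called 94 lower and the covariate fit 11, against 8 in the main fit. Without KO_tdT 2, 3 or 4 the numbers were 26, 11 and 21. They were 2 without WT_tdT 4, 3 without WT_tdT 3 or WT_hM4D 3, and 0 without the mixed libraries.

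The comparison of knockouts with hM4Di against wild types with tdTomato gave the most calls. In KO_hM4D against WT_tdT, 13 of the 36 genes fell (1.01% of all genes tested were called lower) and none rose (0.946% were called higher). They were Egr1, Egr2, Nr4a1 and Npas4 among rapid neuronal genes, Cyr61 and Apold1 among vascular or glial ones, Btg2, Dusp1, Gadd45b, Csrnp1 and Sik1 among rapid broad ones, and Gadd45g and Arl4d among delayed broad ones. The median log2 change was -0.47 (-0.0014 over all genes tested), 31 of 36 were negative (50.3%), and KO_hM4D lay wholly below WT_tdT for 19 genes (7.09%) and wholly above it for none (6.9%). Below an unadjusted p of 0.05, 21 were lower (10.6%) and none was higher (9.91%). Both the genotype and the virus differ in this comparison, and sex differs with them in part. Its count was 3 without KO_hM4D 2, 4 without KO_hM4D 4, 6 without WT_tdT 2, 3 or 4 or KO_hM4D 1, 8 without WT_tdT 1, and 3 (Btg2, Cyr61 and Dusp1) without the 4 mixed libraries. With the Y-linked covariate 15 were called, Csrnp1 no longer among them and Egr4, Klf2 and Tiparp in addition. DESeq2 called 20, the 13 and Egr4, Arc, Klf2, Ier2, Nr4a3, Dusp5 and Tiparp. Over all genes tested, DESeq2 called 801 lower and the covariate fit 544, against 210 in the main fit. The number was 35 without KO_hM4D 1, 8 without KO_hM4D 2 and 13 without KO_hM4D 4. Without WT_tdT 1, 2, 3 or 4 it was 50, 20, 19 and 71, and without the mixed libraries 24. All 3 comparisons use the same 4 WT_tdT libraries, so their agreement in direction is not independent.

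**Figure D2:**
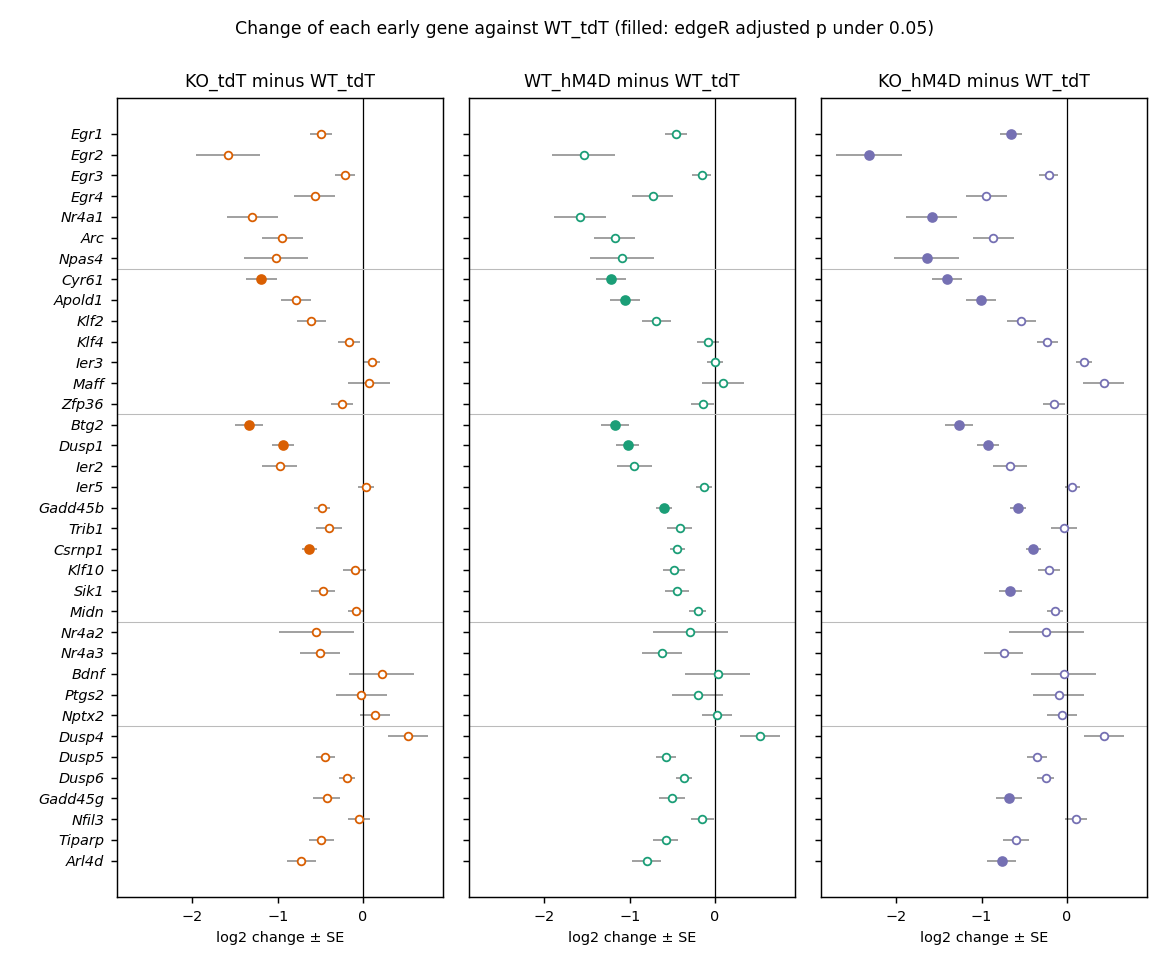
Log2 change of each early gene against WT_tdT with its standard error (horizontal bars), in KO_tdT, WT_hM4D and KO_hM4D; filled points passed an adjusted p of 0.05 in edgeR and open points did not. The filled points number 4, 5 and 13, all left of 0, and Dusp4 lies to the right in each panel.

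Sorted by timing, the calls fell mostly on rapid genes: 4 of 24 in KO_tdT, 5 of 24 in WT_hM4D and 11 of 24 in KO_hM4D against WT_tdT, with 0, 0 and 2 of the 12 delayed genes. Over all genes tested, 0.0384, 0.0384 and 1.01% were called lower in the same comparisons. Median log2 changes were -0.53, -0.54 and -0.62 for the rapid genes and -0.31, -0.33 and -0.24 for the delayed ones. Sorted by cell source, 0, 0 and 4 of 12 neuronal genes were called, 1, 2 and 2 of 7 vascular or glial genes, and 3, 3 and 7 of 17 broad genes. The medians were -0.53, -0.54 and -0.70 for neuronal, -0.25, -0.14 and -0.23 for vascular or glial, and -0.44, -0.48 and -0.40 for broad genes. Differences between these classes were not tested, and the neuronal genes also had the largest median SE, 0.27 in each comparison against 0.17 for vascular or glial and 0.13 for broad genes. By timing, the median SE in each comparison was 0.14 for rapid and 0.17 for delayed genes.

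Among rapid neuronal genes, whose products are mostly transcription factors, the median log2 change was -0.95 in KO_tdT, -1.09 in WT_hM4D and -0.95 in KO_hM4D against WT_tdT, and all 7 were negative in each. Of 9 striatal projection neuron markers none was called in these comparisons. Their median log2 changes were -0.24, -0.13 and -0.37. At an unadjusted p under 0.05, 0, 0 and 2 were lower (4.77, 4.48 and 10.6% of all genes tested). Their sums were 3457 to 6044, 3322 to 6035, 3313 to 5633 and 3227 to 4315 CPM in WT_tdT, KO_tdT, WT_hM4D and KO_hM4D, and their part in the early gene levels was not tested. Nr4a1 (chr15:101254269-101274795 on GRCm38, the build of all positions given), an orphan nuclear receptor induced by dopamine and cAMP, measured 72.7, 61.8, 75.6 and 103 CPM in WT_tdT, 26.6, 27.2, 23.1 and 27.5 CPM in WT_hM4D, 25.3, 20.1, 18 and 63.6 CPM in KO_tdT and 27.9, 25.4, 29.4 and 21.5 CPM in KO_hM4D. All libraries outside WT_tdT except KO_tdT 4 were below every WT_tdT library by a wide margin, and KO_tdT 4 lay between WT_tdT 2 and WT_tdT 1. Nr4a1 fell in KO_hM4D (log2 change -1.58 ± 0.30, adjusted p = 0.0233). That call was lost when WT_tdT 2, 3 or 4 or KO_hM4D 1, 2 or 4 was left out, and without the 4 mixed libraries. Nr4a1 had values of -1.58 ± 0.30, adjusted p = 0.0663 in WT_hM4D and -1.30 ± 0.30, adjusted p = 0.245 in KO_tdT.

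Egr2 (chr10:67535475-67542188), a zinc finger factor of the early growth response family, measured 15.1, 16.2, 17.8 and 31.1 CPM in WT_tdT, 8.82, 6.37, 7.01 and 5.34 CPM in WT_hM4D, 5.07, 3.1, 4.05 and 14.5 CPM in KO_tdT and 3.51, 4.78, 4.32 and 3.38 CPM in KO_hM4D. Its 4 WT_tdT libraries exceeded all others, narrowly in the case of KO_tdT 4. It had the largest called change of the 36, a log2 change of -2.32 ± 0.39, adjusted p = 0.0155 in KO_hM4D, and values of -1.54 ± 0.37, adjusted p = 0.14 in WT_hM4D and -1.59 ± 0.38, adjusted p = 0.245 in KO_tdT. The Egr2 call was lost without KO_hM4D 2, without KO_hM4D 4 and without the 4 mixed libraries. Egr1, the family member most used to mark active neurons, measured 111, 124, 133 and 142 CPM in WT_tdT, 95.9, 88.2, 96.7 and 90.02 CPM in WT_hM4D, 103, 77.7, 67.8 and 115 CPM in KO_tdT and 77.4, 83.5, 88.8 and 74 CPM in KO_hM4D. WT_hM4D and KO_hM4D did not overlap WT_tdT, whereas KO_tdT 4 did. Egr1 fell in KO_hM4D (-0.66 ± 0.13, adjusted p = 0.0236). That call was lost when WT_tdT 2, 3 or 4 or KO_hM4D 1, 2 or 4 was left out, and without the 4 mixed libraries.

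Npas4 (chr19:4984355-4990316), a neuronal factor that responds to depolarisation, measured 12.2, 24.2, 22 and 19.2 CPM in WT_tdT, 14, 4.65, 8.68 and 9.12 CPM in WT_hM4D, 9.21, 3.24, 11.6 and 14.4 CPM in KO_tdT and 4.97, 8.57, 6.9 and 4.42 CPM in KO_hM4D. WT_tdT 1 was the low library of its group and overlapped WT_hM4D and KO_tdT, but not KO_hM4D. The fall in KO_hM4D passed (-1.64 ± 0.38, adjusted p = 0.0405); it was lost when any 1 of the 8 libraries of that comparison was left out, and the adjusted p reached 0.12 over the alternatives run.

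Arc, which encodes a postsynaptic protein that drives removal of AMPA receptors, was the most abundant of the set and measured 244, 263, 338 and 331 CPM in WT_tdT, 144, 119, 122 and 134 CPM in WT_hM4D, 168, 109, 95 and 237 CPM in KO_tdT and 164, 228, 131 and 125 CPM in KO_hM4D. All 4 WT_tdT libraries were highest, KO_tdT 4 and KO_hM4D 2 came next, and no comparison passed (log2 change -0.95 ± 0.24, adjusted p = 0.318 in KO_tdT, -1.18 ± 0.24, adjusted p = 0.0735 in WT_hM4D and -0.86 ± 0.24, adjusted p = 0.0682 in KO_hM4D). Egr4 averaged 19.2 ± 4.63 CPM in WT_tdT, 11.6 ± 1.12 CPM in WT_hM4D, 13 ± 6.54 CPM in KO_tdT and 9.98 ± 1.15 CPM in KO_hM4D, with KO_tdT 4 at 22.8 CPM far above the rest of its group; its value in KO_hM4D was -0.95 ± 0.24, adjusted p = 0.0525. Egr3 differed least in size, with group means of 41.4 ± 0.977 CPM in WT_tdT and 35.7 ± 6.38 CPM in KO_hM4D and all 3 log2 changes between -0.21 and -0.16. Its KO_tdT libraries, at 33.2 to 37.8 CPM, were nonetheless all below those of WT_tdT, at 40.4 to 42.6 CPM (adjusted p = 0.633).

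**Figure D3:**
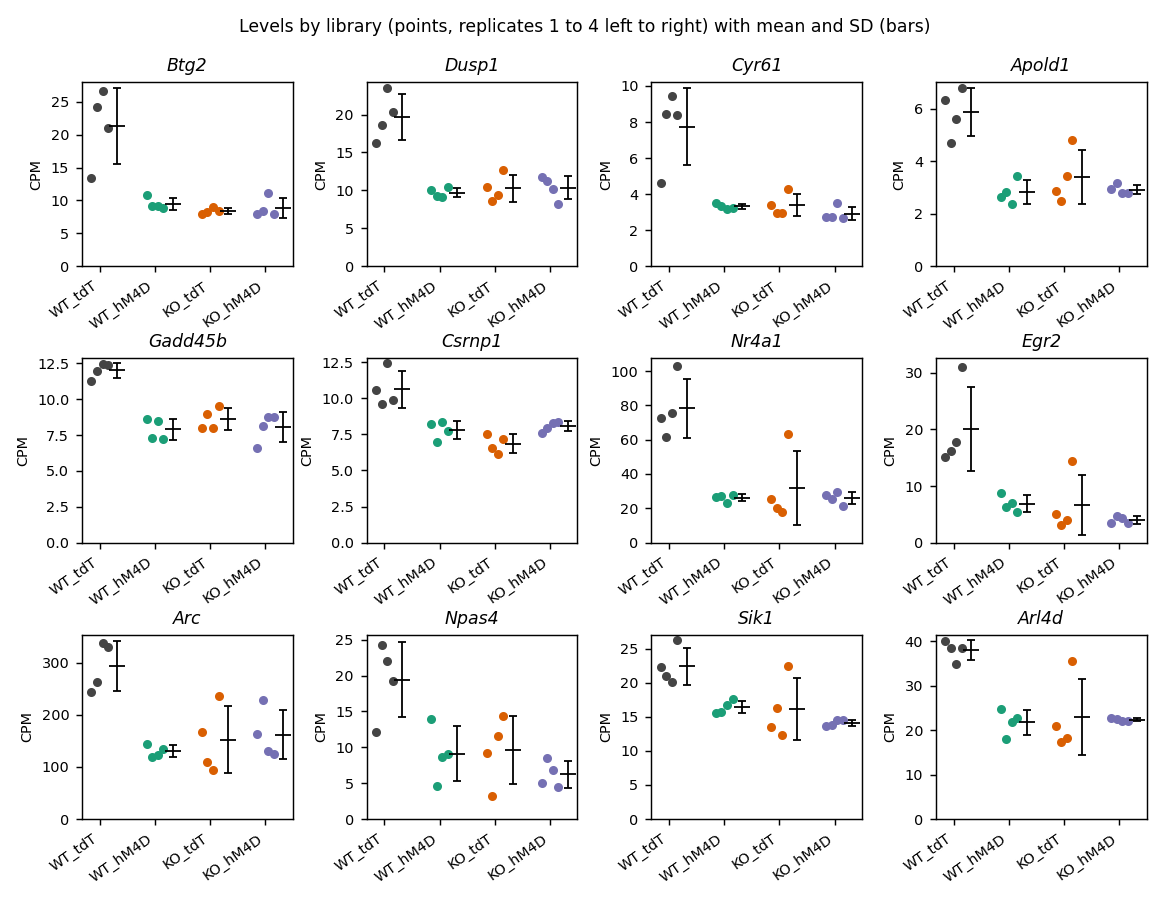
CPM of 12 early genes in each library (points, replicates 1 to 4 from left to right) with the mean and SD of 4 libraries (bar), by group, on linear axes from 0. In Btg2, Dusp1, Cyr61, Gadd45b, Csrnp1, Egr2 and Arc all 4 WT_tdT points are above all other points, and in Nr4a1, Egr2, Arc, Sik1 and Arl4d the fourth KO_tdT point stands above its group.

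Of the 7 rapid genes known from vessels and glia, Cyr61 and Apold1 carried the calls. Cyr61 (chr3:145646976-145649981), a secreted matrix protein induced by growth factors and mechanical stress, measured 4.61, 8.45, 9.45 and 8.4 CPM in WT_tdT, 3.52, 3.36, 3.16 and 3.21 CPM in WT_hM4D, 3.37, 2.96, 2.93 and 4.27 CPM in KO_tdT and 2.75, 2.73, 3.48 and 2.7 CPM in KO_hM4D. Its lowest WT_tdT library, replicate 1, was still above KO_tdT 4, the highest of the rest. Cyr61 fell in all 3 comparisons, with log2 changes of -1.19 ± 0.18, adjusted p = 0.0205 in KO_tdT, -1.22 ± 0.18, adjusted p = 0.0107 in WT_hM4D and -1.40 ± 0.18, adjusted p = 0.0041 in KO_hM4D. Without the 4 mixed libraries the last of these was -1.36, adjusted p = 0.0389, and the value in KO_tdT was -1.08, adjusted p = 0.273.

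Apold1 (chr6:134981718-134986836), an early gene of brain endothelium, measured 6.32, 4.7, 5.6 and 6.8 CPM in WT_tdT, 2.65, 2.83, 2.38 and 3.43 CPM in WT_hM4D, 2.85, 2.49, 3.42 and 4.82 CPM in KO_tdT and 2.92, 3.16, 2.79 and 2.78 CPM in KO_hM4D. WT_hM4D and KO_hM4D were below WT_tdT throughout, and KO_tdT 4 exceeded WT_tdT 2. It fell in WT_hM4D (-1.05 ± 0.17, adjusted p = 0.027) and KO_hM4D (-1.01 ± 0.17, adjusted p = 0.0176), and in KO_tdT the value was -0.79 ± 0.17, adjusted p = 0.207. Of 24 alternatives run, 18 kept the call in WT_hM4D and 21 that in KO_hM4D. Klf2, a flow-responsive factor of endothelium, averaged 3.15 ± 0.627 CPM in WT_tdT, 1.96 ± 0.376 CPM in WT_hM4D, 2.07 ± 0.379 CPM in KO_tdT and 2.171 ± 0.316 CPM in KO_hM4D; all WT_tdT libraries were highest, the closest pair being WT_tdT 2 at 2.62 and KO_hM4D 3 at 2.61 CPM, and no comparison passed (smallest adjusted p = 0.1).

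The stress-induced survival gene Ier3 measured 5.37, 5.57, 6.21 and 5.84 CPM in WT_tdT, 5.61, 5.7, 6.41 and 5.24 CPM in WT_hM4D, 5.75, 6.49, 6.75 and 5.66 CPM in KO_tdT and 5.55, 7.48, 6.35 and 6.99 CPM in KO_hM4D, with all groups overlapping. Klf4, a relative of Klf2, stood at 85.3 to 94.2% of the WT_tdT mean in the other groups, the mRNA decay factor Zfp36 at 84.3 to 90.5%, and the small Maf factor Maff, with 58 to 131 reads a library, at 104 to 134%. None of these 4 passed in any comparison. Zfp36 overlaps a gene on the opposite strand by 125 exon bases, and the sources used do not state the strand setting of the counting. Summed markers of endothelium lay at 125 to 129.1 CPM for WT_tdT, 135 to 147 CPM for WT_hM4D, 113.5 to 129.9 CPM for KO_tdT and 125 to 141 CPM for KO_hM4D, and those of mural cells at 172 to 189 CPM for WT_tdT, 176 to 189 CPM for WT_hM4D, 159 to 182 CPM for KO_tdT and 163 to 189 CPM for KO_hM4D. Of 8 endothelial markers Flt1 was called, higher in KO_hM4D than WT_tdT (0.35 ± 0.085, adjusted p = 0.0491), and of 6 mural markers none in any comparison. At an unadjusted p under 0.05, 1, 1 and 2 of the 6 mural markers were lower in KO_tdT, WT_hM4D and KO_hM4D against WT_tdT. The shares of all genes tested were 4.77, 4.48 and 10.6%. None of the 14 was at 0 in any library. Among 7 astrocyte markers the intermediate filament gene Gfap rose in WT_hM4D (1.33 ± 0.15, adjusted p = 0.00107) and KO_hM4D (0.78 ± 0.15, adjusted p = 0.0241) and no other was called, and of 6 microglial markers none was called. In WT_hM4D against WT_tdT 5 of these 6 were higher at an unadjusted p under 0.05 (6.57% of all genes tested). Their median log2 change was 0.17, with sums of 406.5 to 463 CPM against 375 to 410.1 CPM. All 6 oligodendrocyte markers were lower in value in KO_hM4D than in WT_tdT, with a median of -0.40 and none called. At an unadjusted p under 0.05, 2 of them were lower (10.6% of all genes tested). Their sums were 5128 to 7498 CPM in KO_hM4D and 6079 to 8677 CPM in WT_tdT. The part of these markers in the early gene levels was not tested.

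The rapid broad genes, 10 of the 36, held 3 of the 4 calls in KO_tdT, 3 of the 5 in WT_hM4D and 5 of the 13 in KO_hM4D. Called lower over all genes tested were 0.0384, 0.0384 and 1.01%. Btg2 (chr1:134075170-134079120), an antiproliferative cofactor of mRNA deadenylation, measured 13.4, 24.2, 26.7 and 21 CPM in WT_tdT, 10.8, 9.11, 9.09 and 8.82 CPM in WT_hM4D, 7.98, 8.17, 9.02 and 8.45 CPM in KO_tdT and 7.92, 8.4, 11.2 and 8.02 CPM in KO_hM4D. WT_tdT 1 was the lowest of its group and still above the highest of the other 12, KO_hM4D 3. Btg2 fell by log2 changes of -1.34 ± 0.16, adjusted p = 0.00393 in KO_tdT, -1.17 ± 0.16, adjusted p = 0.00689 in WT_hM4D and -1.26 ± 0.16, adjusted p = 0.0041 in KO_hM4D, to 39.5, 44.4 and 41.6% of the WT_tdT mean. Without the 4 mixed libraries the log2 change was -1.38, adjusted p = 0.135 in KO_tdT, -1.11, adjusted p = 0.2 in WT_hM4D and -1.27, adjusted p = 0.0389 in KO_hM4D.

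Dusp1 (chr17:26505590-26562128), a nuclear phosphatase that switches off MAP kinases, measured 16.3, 18.6, 23.5 and 20.4 CPM in WT_tdT, 9.99, 9.19, 9.18 and 10.4 CPM in WT_hM4D, 10.4, 8.56, 9.42 and 12.7 CPM in KO_tdT and 11.7, 11.3, 10.2 and 8.25 CPM in KO_hM4D. The other groups did not overlap WT_tdT, and the nearest library was KO_tdT 4. Dusp1 fell in KO_tdT (-0.94 ± 0.13, adjusted p = 0.0132), WT_hM4D (-1.02 ± 0.13, adjusted p = 0.00335) and KO_hM4D (-0.93 ± 0.13, adjusted p = 0.00813). Btg2, Cyr61 and Dusp1 kept their call in KO_hM4D under all 24 alternatives run. They kept it under 22, 15 and 18 of 24 in KO_tdT and under 22, 20 and 22 in WT_hM4D. Dusp1 overlaps a gene on the opposite strand, Ergic1, by 11 exon bases.

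Gadd45b (chr10:80930073-80932204), a stress sensor that activates a MAP kinase cascade and takes part in DNA demethylation, measured 11.3, 11.9, 12.4 and 12.4 CPM in WT_tdT, 8.59, 7.32, 8.49 and 7.23 CPM in WT_hM4D, 7.99, 8.94, 8.01 and 9.54 CPM in KO_tdT and 6.57, 8.12, 8.75 and 8.78 CPM in KO_hM4D. The WT_tdT libraries were tightly grouped and above all others. It fell in WT_hM4D (-0.60 ± 0.093, adjusted p = 0.0159) and KO_hM4D (-0.58 ± 0.093, adjusted p = 0.0142), and its value in KO_tdT was -0.48 ± 0.093, adjusted p = 0.146. Of 24 alternatives run, 19 kept the call in WT_hM4D and 22 that in KO_hM4D. Csrnp1 (chr9:119971163-119984658), a nuclear regulator of transcription, measured 10.5, 9.6, 12.5 and 9.87 CPM in WT_tdT, 8.19, 6.94, 8.36 and 7.75 CPM in WT_hM4D, 7.56, 6.54, 6.16 and 7.2 CPM in KO_tdT and 7.61, 7.97, 8.32 and 8.37 CPM in KO_hM4D. All WT_tdT libraries were highest, and KO_tdT was the lowest group in mean, with no library above those of KO_hM4D. Csrnp1 fell in KO_tdT (-0.63 ± 0.089, adjusted p = 0.0132) and KO_hM4D (-0.40 ± 0.088, adjusted p = 0.0364), with -0.44 ± 0.089, adjusted p = 0.0732 in WT_hM4D. Its call in KO_hM4D was lost when any single library of WT_tdT or KO_hM4D was left out. The call in KO_tdT was kept under 19 of 24 alternatives. Csrnp1 shares 224 exon bases with 1700019L13Rik on the opposite strand.

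Sik1 (chr17:31844250-31855804), a kinase that restrains CREB coactivators, measured 22.2, 20.9, 20.1 and 26.3 CPM in WT_tdT, 15.6, 15.8, 16.8 and 17.6 CPM in WT_hM4D, 13.5, 16.3, 12.4 and 22.5 CPM in KO_tdT and 13.7, 13.8, 14.6 and 14.5 CPM in KO_hM4D. WT_hM4D and KO_hM4D lay below WT_tdT throughout, while KO_tdT 4 was the second highest library of all 16. It fell in KO_hM4D (-0.66 ± 0.14, adjusted p = 0.0274), with -0.47 ± 0.14, adjusted p = 0.387 in KO_tdT and -0.45 ± 0.14, adjusted p = 0.248 in WT_hM4D. The call was lost when any single WT_tdT library, or KO_hM4D 1, 2 or 4, was left out. It was also lost without the 4 mixed libraries. Ier2, a nuclear early response protein, averaged 3.51 ± 1.01 CPM in WT_tdT, 1.82 ± 0.318 CPM in WT_hM4D, 1.78 ± 0.35 CPM in KO_tdT and 2.22 ± 0.382 CPM in KO_hM4D, with log2 changes of -0.98 ± 0.20, adjusted p = 0.174 in KO_tdT and -0.95 ± 0.20, adjusted p = 0.0792 in WT_hM4D, and 1 WT_tdT library, replicate 1 at 2.36 CPM, within the range of KO_hM4D.

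None of the remaining rapid broad genes was called in edgeR with all 16 libraries, and DESeq2 called Klf10 lower in WT_hM4D than in WT_tdT (adjusted p = 0.0456). Ier5, a regulator of heat shock factor, measured 49.5, 55.4, 63.7 and 56.7 CPM in WT_tdT, 51, 53.1, 52.9 and 48.7 CPM in WT_hM4D, 63, 54.8, 53.3 and 59.8 CPM in KO_tdT and 52.4, 70.5, 51.8 and 61.1 CPM in KO_hM4D, and its groups overlapped except WT_hM4D and KO_tdT, which were separated narrowly. Trib1, a pseudokinase adaptor for protein breakdown, averaged 9.75 ± 1.87 CPM in WT_tdT, 7.31 ± 0.754 CPM in WT_hM4D, 7.38 ± 1.74 CPM in KO_tdT and 9.54 ± 1.09 CPM in KO_hM4D. Klf10, a factor induced by transforming growth factor beta, averaged 40.7 ± 8.02 CPM in WT_tdT, 29.2 ± 2.16 CPM in WT_hM4D, 38 ± 3.46 CPM in KO_tdT and 35.2 ± 6.06 CPM in KO_hM4D. Midn, which carries nuclear proteins to the proteasome, averaged 29.4 ± 4.1 CPM in WT_tdT, 25.6 ± 2.96 CPM in WT_hM4D, 27.8 ± 1.78 CPM in KO_tdT and 26.7 ± 2.58 CPM in KO_hM4D, and its lowest adjusted p against WT_tdT was 0.45.

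Delayed neuronal genes showed a different spread, with large differences inside each group. Their median log2 change was -0.020 in KO_tdT, -0.20 in WT_hM4D and -0.097 in KO_hM4D against WT_tdT, none of the 5 passed, and their median SE of 0.30 in each was above the 0.12 of all genes tested. Nr4a2, a nuclear receptor of cortical and midbrain neurons, measured 46.8, 46.9, 71.3 and 62.1 CPM in WT_tdT, 45.5, 71.8, 55.5 and 13 CPM in WT_hM4D, 53.8, 48.7, 35.7 and 17.2 CPM in KO_tdT and 20.4, 41, 72.5 and 58.3 CPM in KO_hM4D. WT_hM4D 4, KO_tdT 4 and KO_hM4D 1 were low in 3 different groups, and all groups overlapped. Nr4a3, its relative, measured 17.7, 17.9, 21.6 and 34.4 CPM in WT_tdT, 13.5, 16.8, 16.6 and 12.8 CPM in WT_hM4D, 15.2, 14.8, 10.9 and 23.6 CPM in KO_tdT and 10.1, 13.6, 14.8 and 16.3 CPM in KO_hM4D. It was below every WT_tdT library in all of WT_hM4D and KO_hM4D, but with log2 changes of -0.62 ± 0.23, adjusted p = 0.341 and -0.74 ± 0.23, adjusted p = 0.0975 neither passed.

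The neurotrophin Bdnf ran from 8.55 CPM in WT_tdT 1 to 29.9 CPM in KO_tdT 2. Ptgs2, the inducible cyclooxygenase, ran from 5.01 CPM in WT_tdT 1 to 12.4 CPM in KO_hM4D 3. Nptx2, a secreted pentraxin that clusters AMPA receptors, averaged 40.8 ± 5.41 CPM in WT_tdT, 41.4 ± 10.5 CPM in WT_hM4D, 44.9 ± 7.35 CPM in KO_tdT and 39.2 ± 6.96 CPM in KO_hM4D. In the same libraries the sum of 5 cortical excitatory neuron markers was 541 CPM in WT_hM4D 4, 458 in KO_tdT 4, 697 in KO_hM4D 1 and 553 in WT_tdT 1, and from 579.5 to 1067 CPM in the other 12. Of those 5 markers none was at 0 in any library, and Slc17a7, the cortical vesicular glutamate transporter, ran from 346 to 814 CPM. The part of cortical tissue in the spread of these genes was not tested.

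**Figure D4:**
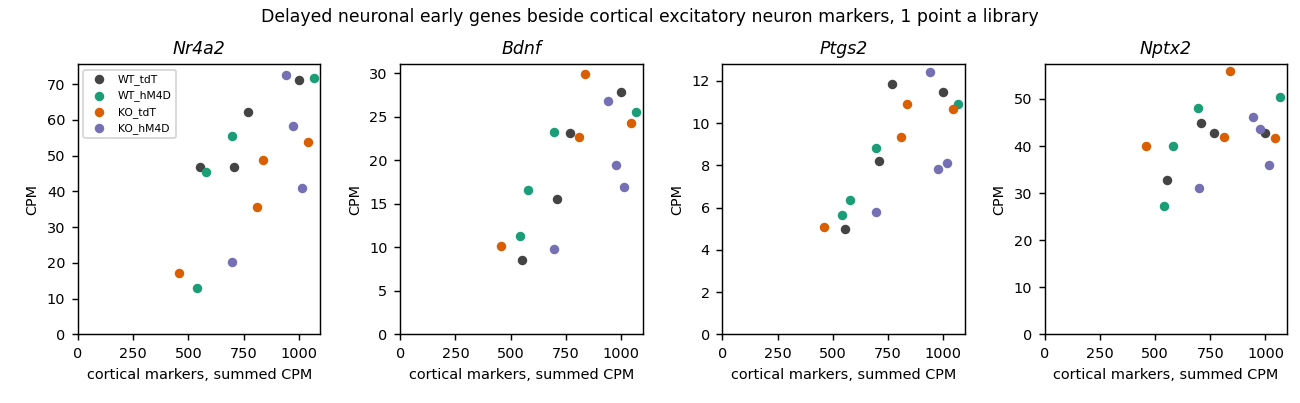
CPM of the 4 delayed neuronal genes Nr4a2, Bdnf, Ptgs2 and Nptx2 (vertical axes) against the summed CPM of 5 cortical excitatory neuron markers (horizontal axes), 1 point a library coloured by group. Nr4a2 is lowest in WT_hM4D 4 and KO_tdT 4, the 2 libraries of smallest marker sum (541 and 458 CPM).

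Among the 7 delayed broad genes, 2 were called, both in KO_hM4D against WT_tdT, where 1.01% of all genes tested were called lower. Arl4d (chr11:101665541-101667832), a small GTPase of the ADP-ribosylation factor family, measured 40.04, 38.4, 34.8 and 38.5 CPM in WT_tdT, 24.7, 17.9, 21.8 and 22.7 CPM in WT_hM4D, 21, 17.2, 18.1 and 35.6 CPM in KO_tdT and 22.6, 22.6, 22.1 and 22 CPM in KO_hM4D. WT_hM4D and KO_hM4D were below WT_tdT without overlap, KO_hM4D within 1 CPM from lowest to highest, and KO_tdT 4 lay inside the WT_tdT range. It fell in KO_hM4D (-0.77 ± 0.17, adjusted p = 0.0357), with -0.80 ± 0.17, adjusted p = 0.0792 in WT_hM4D and -0.72 ± 0.17, adjusted p = 0.245 in KO_tdT. The call in KO_hM4D was lost when any single library of WT_tdT or KO_hM4D was left out. Gadd45g (chr13:51846678-51848468), a growth arrest relative of Gadd45b, measured 9.11, 12, 9.1 and 13.3 CPM in WT_tdT, 9.77, 6.74, 7.34 and 6.81 CPM in WT_hM4D, 6.45, 7.83, 7.96 and 10.1 CPM in KO_tdT and 7.56, 6.68, 7.09 and 5.81 CPM in KO_hM4D. All KO_hM4D libraries were below WT_tdT, and the fall there passed (-0.68 ± 0.16, adjusted p = 0.0387), but not when any 1 of the 8 libraries compared was left out.

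The MAP kinase phosphatases of this class had values of both signs. Dusp5, nuclear, measured 8.75, 7.38, 9.42 and 9.38 CPM in WT_tdT, 5.93, 5.29, 5.97 and 6.27 CPM in WT_hM4D, 7.13, 5.57, 5.17 and 7.84 CPM in KO_tdT and 6.78, 6.89, 6.77 and 6.93 CPM in KO_hM4D; it overlaps a gene on the opposite strand by 547 exon bases. WT_hM4D and KO_hM4D did not overlap WT_tdT, and the values were -0.57 ± 0.11, adjusted p = 0.0732 in WT_hM4D and -0.35 ± 0.11, adjusted p = 0.106 in KO_hM4D. Dusp6, cytoplasmic, measured 57.6, 61.8, 77.3 and 76 CPM in WT_tdT, 49.9, 55.3, 54.5 and 52.1 CPM in WT_hM4D, 69.1, 51.8, 56.7 and 61.6 CPM in KO_tdT and 58.2, 61.2, 59.1 and 51.3 CPM in KO_hM4D, with WT_hM4D below all WT_tdT libraries (-0.36 ± 0.098, adjusted p = 0.183). Dusp4, nuclear, went the other way in value, averaging 4.57 ± 1.58 CPM in WT_tdT, 6.56 ± 0.865 CPM in WT_hM4D, 6.56 ± 2.39 CPM in KO_tdT and 6.16 ± 0.808 CPM in KO_hM4D. Its log2 changes were 0.53 ± 0.23, adjusted p = 0.545 in KO_tdT and 0.53 ± 0.23, adjusted p = 0.419 in WT_hM4D. WT_tdT 4 overlapped the other groups, and WT_tdT 3, at 4.77 CPM, was above KO_tdT 4, at 4.55 CPM.

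Tiparp, an ADP-ribosyltransferase, averaged 30.8 ± 6.04 CPM in WT_tdT, 20.6 ± 1.75 CPM in WT_hM4D, 21.9 ± 5.43 CPM in KO_tdT and 20.4 ± 1.74 CPM in KO_hM4D and narrowly missed the threshold in KO_hM4D (-0.60 ± 0.15, adjusted p = 0.0502); it overlaps a gene on the opposite strand by 223 exon bases, and Bdnf does so by 896. Nfil3, a repressor of the circadian clock and immune genes, averaged 7.22 ± 1.59 CPM in WT_tdT, 6.52 ± 0.353 CPM in WT_hM4D, 6.99 ± 0.914 CPM in KO_tdT and 7.78 ± 0.748 CPM in KO_hM4D, with all groups overlapping except KO_hM4D, which lay wholly above WT_hM4D.

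In the knockouts, hM4Di was not accompanied by a further change that passed. In KO_hM4D against KO_tdT none of the 36 was called in edgeR, where 0.0048% of all genes tested were called higher and none lower. DESeq2 also called none of the 36, while over all genes tested it called 79 lower and 45 higher. Below an unadjusted p of 0.05, 2 were higher (5.52% of all genes tested), Trib1 (0.37 ± 0.15, adjusted p = 0.414) and Csrnp1 (0.23 ± 0.089, adjusted p = 0.389), and none was lower (5.59%). The median log2 change was -0.061 (0.0018 over all genes tested), 22 of 36 were negative (49.5%) and 14 positive (50.5%). For 1 gene, Csrnp1, KO_hM4D lay wholly above KO_tdT (2.33%), and for none wholly below (2.55%). Btg2 stood at 0.079 ± 0.16, Dusp1 at 0.013 ± 0.13 and Arc at 0.088 ± 0.24, all within 1 SE of 0, and the rapid neuronal median was -0.28 with 6 of 7 negative. Without KO_tdT 4 the median over the 36 was 0.026.

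Between the hM4Di groups no early gene passed unless replicate numbers were used as a block. In KO_hM4D against WT_hM4D none of the 36 was called in edgeR or DESeq2. Over all genes tested, edgeR called 0.0144% lower and 0.0048% higher, and DESeq2 called 58 genes lower and 25 higher. Below an unadjusted p of 0.05, 1 of the 36 was higher (6.0% of all genes tested), Trib1 (0.38 ± 0.15, adjusted p = 0.339), and none was lower (6.66%). The median log2 change was 0.031 (-0.0091 over all genes tested), with 17 of 36 negative (52.5%) and 19 positive (47.5%). KO_hM4D lay wholly below WT_hM4D for 2 genes (3.37%), Egr2 (-0.78 ± 0.38, adjusted p = 0.399) and Sik1 (-0.21 ± 0.14, adjusted p = 0.52), and wholly above it for 3 (2.73%), Trib1, Dusp5 and Nfil3. Libraries of the same number deviated together in these groups. Their 8 libraries were therefore also fitted with the replicate number as a block, an alternative added after seeing the data that leaves 3 residual degrees of freedom. That edgeR fit called 2 genes lower (2.45% of the 20127 genes tested), Egr2 (adjusted p = 0.0227) and Sik1 (adjusted p = 0.0363). It called 2 higher (3.67%), Trib1 (adjusted p = 0.0403) and Nfil3 (adjusted p = 0.0471). Without the block the same 8 libraries gave no call among the 36.

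The interaction tests whether hM4Di went with a different change in knockouts than in wild types. In edgeR none of the 36 and none of the 20825 genes passed. At an unadjusted p under 0.05, 15 of the 36 had a more positive hM4Di change in the knockouts (3.28% of all genes tested) and none a more negative one (3.49%). The sign was positive for 33 of 36 (48.8%) and negative for 3 (51.2%: Bdnf, Nptx2 and Dusp4), among the positive all 24 rapid genes, with a median of 0.38 (-0.0049 over all genes tested). Dusp1 (1.04 ± 0.19, adjusted p = 0.407) and Btg2 (1.25 ± 0.23, adjusted p = 0.407) had the smallest p. DESeq2 called 4 of the 36, Btg2, Dusp1, Ier2 and Csrnp1, all positive, among 5 genes called positive and 7 called negative over all genes tested. In edgeR 2 genes, Cyr61 and Btg2, passed without WT_tdT 1, and 3, Nr4a1, Dusp1 and Arl4d, without KO_tdT 4. Over all genes tested, 2 were called positive and 1 negative without WT_tdT 1, and 4 and 0 without KO_tdT 4. The high WT_tdT levels enter the interaction as well as the other comparisons, so it is not separate evidence from them.

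**Figure D5:**
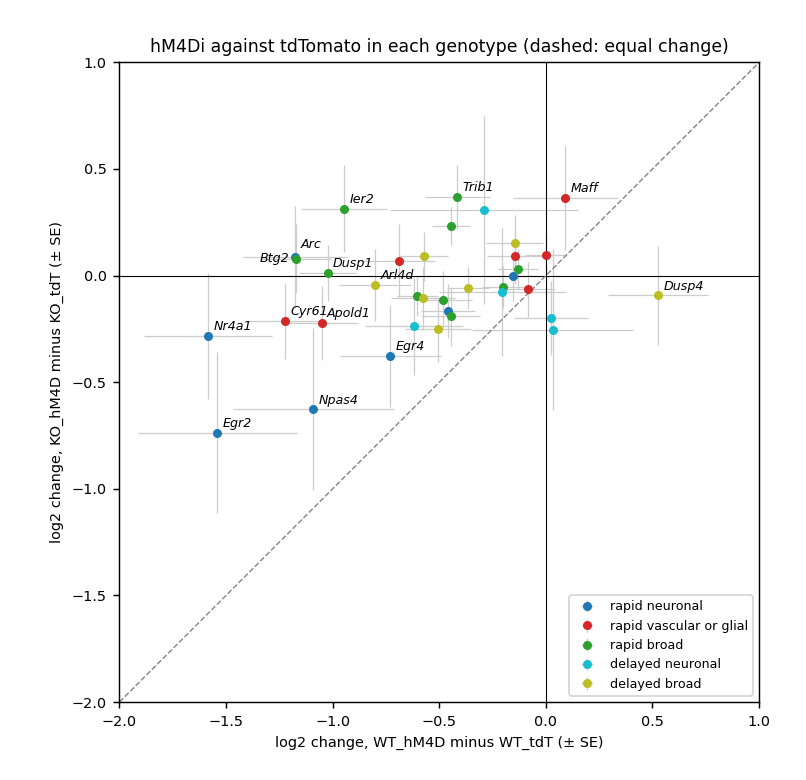
Log2 change of each early gene with hM4Di against tdTomato in wild types (horizontal) and in knockouts (vertical), with standard errors in grey; the dashed line marks equal change and colours mark the classes. Of the 36 points 33 are above the line, and most points spread further along the horizontal axis than along the vertical one.

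Replicate 4 of KO_tdT stood nearer to WT_tdT than the rest of its group for many of the early genes, but not for all. It was the highest of the 12 libraries outside WT_tdT for 16 of the 36 genes, which held for 13.7% of all genes tested. For Nr4a1, Egr2, Egr4, Arc, Sik1, Tiparp, Nr4a3 and Arl4d it exceeded the other 3 KO_tdT libraries, whereas for Btg2, at 8.45 CPM, and Ier2, at 1.62 CPM, it stayed inside their range. For Nr4a2, Bdnf, Ptgs2, Nptx2, Nfil3, Klf10, Dusp4 and Ier3 it was the lowest library of its group. Nr4a2 was at 17.2 CPM in it, against 35.7 to 53.8 CPM in the others and 46.8 to 71.3 CPM in WT_tdT. Its summed striatal projection neuron markers were 6035 CPM, against 3322 to 3666 in the others of its group, and its cortical sum was the lowest of all 16 at 458 CPM. The part of tissue makeup in the level of KO_tdT 4 was not tested.

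The AP-1 genes are given for reference. Of 6 tested, Fos fell in KO_tdT (-1.54 ± 0.25, adjusted p = 0.0279), WT_hM4D (-1.66 ± 0.25, adjusted p = 0.0107) and KO_hM4D (-2.08 ± 0.25, adjusted p = 0.00332) against WT_tdT. Junb fell in WT_hM4D (-1.18 ± 0.20, adjusted p = 0.0315) and KO_hM4D (-1.46 ± 0.20, adjusted p = 0.00811), with -1.09 ± 0.20, adjusted p = 0.113 in KO_tdT.

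Of 26 further activity-induced genes none was called in KO_tdT or WT_hM4D against WT_tdT, where the smallest p belonged to Ppp1r15a (-0.30 ± 0.063, adjusted p = 0.181 and -0.28 ± 0.063, adjusted p = 0.0984), followed by Sertad1 in KO_tdT (-0.33 ± 0.094, adjusted p = 0.385) and Mcl1 in WT_hM4D (-0.21 ± 0.055, adjusted p = 0.162). In KO_hM4D, Atf3, a stress-induced repressor, fell (-1.20 ± 0.27, adjusted p = 0.0357), Ppp1r15a, which restores translation after stress, fell (-0.35 ± 0.063, adjusted p = 0.0227), and Irs2, an insulin receptor substrate, rose (0.37 ± 0.076, adjusted p = 0.0261). The list's medians were -0.061, -0.14 and -0.078 in the 3 comparisons. None of the 26 was called in KO_hM4D against KO_tdT or WT_hM4D, or in the interaction, where the smallest p belonged to Mcl1 (-0.14 ± 0.055, adjusted p = 0.406), Fbxo33 (0.12 ± 0.054, adjusted p = 0.376) and Rasl11b (0.58 ± 0.19, adjusted p = 0.658). Second were Irs2 (0.15 ± 0.076, adjusted p = 0.473), Crem (0.15 ± 0.07, adjusted p = 0.398) and Ppp1r15a (0.23 ± 0.089, adjusted p = 0.686).

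Of 40 upstream components, the calcium, cAMP and MAP kinase signalling genes and the transcription factors and cofactors that act on early gene promoters, none was called in any of the 6 comparisons, and the medians were between -0.0062 and 0.022. The smallest p values against WT_tdT belonged to Camk4, a nuclear CREB kinase (-0.28 ± 0.092, adjusted p = 0.428 in KO_tdT and -0.28 ± 0.092, adjusted p = 0.265 in WT_hM4D), and to Hdac5, a histone deacetylase exported from the nucleus by activity (0.14 ± 0.062, adjusted p = 0.551 in KO_tdT, 0.24 ± 0.062, adjusted p = 0.169 in WT_hM4D and 0.24 ± 0.062, adjusted p = 0.0591 in KO_hM4D). In KO_hM4D Hdac4 came second (0.33 ± 0.11, adjusted p = 0.107). Elsewhere the genes of smallest p were Ep300 (0.18 ± 0.07, adjusted p = 0.391) and Elk3 (-0.18 ± 0.072, adjusted p = 0.395) in KO_hM4D against KO_tdT, Cacna1c (0.15 ± 0.06, adjusted p = 0.339) and Camk2a (0.38 ± 0.15, adjusted p = 0.343) in KO_hM4D against WT_hM4D, and Camkk2 (0.32 ± 0.11, adjusted p = 0.663) and Camk4 (0.36 ± 0.13, adjusted p = 0.668) in the interaction. At an unadjusted p under 0.05 in either direction were 2 of the 40 in KO_tdT (8.69% of all genes tested), 7 in WT_hM4D (11.1%) and 12 in KO_hM4D (20.5%) against WT_tdT. They were 8 in KO_hM4D against KO_tdT (11.1%), 6 in KO_hM4D against WT_hM4D (12.7%) and 4 in the interaction (6.77%). Transcript levels of these components say nothing of their phosphorylation state.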

How the data were processed

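Ribosome-depleted, stranded total RNA libraries of mouse striatum were sequenced, as the labels' protocols say. The authors deposited raw counts per gene and library in 1 table; reads were demultiplexed with bcl2fastq 2.17, aligned with STAR and counted with HTSeq on GRCm38 (mm10), per the submitters' processing notes. Annotation release, strand setting and filters of the counting are not stated there. The table had 0 rows naming no gene and 0 columns of other samples. Members and lists were chosen with earlier results of these data known. Counts were fitted with edgeR 4.0.16 (R 4.3.3; filterByExpr by group, TMM, quasi-likelihood, a coefficient per group, all 16 libraries, common dispersion 0.0162, 12 residual degrees of freedom). Tests were two-sided, adjusted by Benjamini-Hochberg over 20825 genes, and called under 0.05; every adjusted p is from this edgeR test unless DESeq2 is named. Log2 changes carry their standard error (± SE); CPM are TMM-scaled, as mean ± SD over 4 libraries where 1 value is given for a group. Per-length levels and coordinates use GENCODE M21 exons on GRCm38. Named genes were all 36, with per-library values for those called in any comparison and, in each class, for the one of highest level and that of smallest p in WT_hM4D against WT_tdT. Of the other lists, called genes and otherwise those of smallest p were named. Tested on simulated counts for KO_tdT against WT_tdT (20569 genes, 200 of them changed), the fit recovered 90% of 100 genes changed 1.5-fold and 100% of 100 changed 2-fold, with 15 false calls. It made 0 calls where nothing was changed. Every simulated gene had the common dispersion, and no tissue or sex differences were simulated, so these rates do not carry over to genes that vary more. In KO_tdT the SD was 78.8% of the mean for Egr2 and 67.6% for Nr4a1, against 5.4% for Btg2. Same-number libraries of KO_hM4D and WT_hM4D deviated together (correlations 0.152 to 0.542 in 4 of 4 pairs). The labels do not say that a number marks a shared animal or batch, and the other 5 pairs of groups did not meet the limit of 0.1 in every pair. In the 24 within-group pairs counts differed by more than chance sampling gives (12.3 to 138 units of chi-square a degree of freedom). Each library was treated as 1 replicate. Whether libraries are separate animals cannot be read from this difference. Alternatives were DESeq2 1.42.0, RLE factors, no filter, a replicate block, the Y-linked level as a covariate, subsets of libraries and leaving out each library.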

Additional observations from a re-analysis of the deposited data

Results flagged for a closer look

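Within single groups of 4 libraries, 9 of 144 sets of values had 1 library far from the other 3 (most of the range on the log2 scale was the gap to it), against about 1 in 20 expected by chance. In KO_tdT, Egr4 was 22.8 CPM in replicate 4 and 9.31 to 10.02 CPM in the others, Trib1 was 9.98 CPM in replicate 1 and 6.34 to 6.69 CPM in the others, Midn was 25.1 CPM in replicate 3 and 28.4 to 28.9 CPM in the others, and Nptx2 was 55.9 CPM in replicate 2 and 40.1 to 42 CPM in the others. In WT_tdT, replicate 1 was low for Cyr61, at 4.61 CPM against 8.4 to 9.45 CPM, and for Nptx2, at 32.8 CPM against 42.7 to 44.8 CPM. In WT_hM4D, Btg2 was 10.8 CPM in replicate 1 against 8.82 to 9.11 CPM, and Dusp4 was 7.85 CPM in replicate 3 against 5.95 to 6.24 CPM. In KO_hM4D, Cyr61 was 3.48 CPM in replicate 3 against 2.7 to 2.75 CPM.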

How the results depend on the processing

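No result changed direction while called. Of 5184 values of single genes under the alternatives, 4925 kept their side of the threshold, 115 lost a call, 100 gained one and 44 moved. The 4925 also count uncalled values whose sign changed with a shift under 1 SE. The 44 are uncalled values whose sign changed with a larger shift. The number of genes called lower in KO_tdT against WT_tdT was 4; it was 10 with DESeq2, 0 without the 4 libraries holding both Xist and Y-linked transcripts, 9 without those and KO_tdT 4 (an alternative chosen after seeing the data), 0 with only the compared groups fitted, and 1 to 14 when 1 library was left out. In WT_hM4D against WT_tdT the count of 5 became 17, 0, 3 and 11 in the same order, and 2 to 11. Over all genes tested, leaving out the 4 mixed libraries and KO_tdT 4 gave 29 genes called lower in KO_tdT and 6 in WT_hM4D. With only the compared groups fitted these numbers were 1 and 23. In KO_hM4D against WT_tdT the count of 13 became 20 with DESeq2, 3 without the 4 libraries, and 3 to 17. The 17, without KO_tdT 4, stood beside 463 genes called lower over all genes tested. The interaction count of 0 became 4 with DESeq2, 1 (Nr4a1) without the 4 libraries and KO_tdT 4, and 0 to 3. In the fit that called Nr4a1, 1 gene was called positive and 2 negative over all genes tested. The replicate block left the counts at 4, 5, 0, 0, 13 and 0. Over all genes tested it called 9, 7, 0, 3, 179 and 0 lower in the same order. In KO_hM4D against WT_tdT it lost Gadd45g and Npas4 and gained Egr4 and Tiparp. Fitted to KO_hM4D and WT_hM4D alone, the only pair of groups in which all same-number correlations exceeded 0.1, the block turned counts of 0 lower and 0 higher into 2 and 2. Over all 24 same-number pairs correlations ran from -0.436 to 0.542, and 6 of 16 libraries correlated best with their own number. The Y-linked covariate gave 5, 5, 0, 0, 15 and 0. The causes of these shifts were not tested. Taken over all genes, counts differed between libraries of a group by more than chance sampling gives. The part of depth in the precision of single genes was not tested, and Maff and Zfp36 have the fewest reads.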
